A study of Mus musculus with 32 samples.

Results

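The major urinary proteins are small secreted lipocalins, made above all by the liver of male mice, filtered by the kidney and passed into urine, where they carry volatile pheromones. Their genes stand in a cluster on chromosome 4 and include near-identical copies, and in liver they answer to growth hormone and androgens. The genes described here are Mup3, Mup4, Mup17, Mup18, Mup19 and Mup20. Mup20 encodes darcin, a male scent signal, and the other 5 encode further proteins of the family. They were taken by symbol, through the transcript accession that the scanner files give for each probe, and are 6 of the 20659 named genes on the array. RefSeq lists 22 protein-coding Mup genes, and 10 Mup genes had a probe that could be named. The 6 genes were picked because earlier results of these data placed most of them among the genes most reduced after cisplatin, so their values after cisplatin are a description. How many of their probes the fit over all probes called there is given beside the share of all probes, and supports nothing.

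Total RNA from the whole kidneys of 32 male mice, 12 to 16 weeks old, was hybridised to 1-colour Agilent arrays, 1 animal per array. Mice deficient in the microRNA miR-155 (miR-155-/-, strain B6.Cg-Mir155tm1.1Rsky/J, originally from The Jackson Laboratory) received 1 dose of cisplatin, 20 mg/kg, which is a platinum compound toxic to renal tubules, and were studied at 24, 48 and 72 h beside saline-injected mice of the same strain (0 h). Wild type C57BL/6 mice from Charles River Laboratories, matched for age and weight, received the same treatments, and each of the 8 groups held 4 animals. The deletion is carried by a strain kept apart from the purchased wild type mice, so genotype and origin of the mice cannot be told apart.

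Each level below is the log2 of a probe's processed signal minus the 75th percentile of its own array, so that a level of 0 equals that percentile. A probe counts as measured on an array where the scanner software called it well above background, and the lowest level so called lay between -8.45 and -6.72 over the arrays. Levels of different probes are not comparable with each other. Between 67.9 and 81.7% of probes were well above background on an array and no spot was saturated. Of 39429 probes, 29113 passed a filter on dim values (called well above background in a whole group of 4 arrays) and were tested. Havcr1 (kidney injury molecule 1) was higher after cisplatin in all 6 comparisons (limma, adjusted p under 0.05), by 4.08 to 7.45 log2 units in miR-155-/- kidneys and by 4.46 to 5.75 in wild type kidneys, and Lcn2, a lipocalin that marks kidney injury, was higher in 5 of them, all but wild type at 24 h. All 10 kidney markers, Umod and Kap among them, were well above background on all 4 arrays of 7 of the 8 groups, and 9 were in saline miR-155-/- kidneys.

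The 6 genes had 8 probes, each a single spot. Mup3, Mup17, Mup18 and Mup19 had 1 probe each, and Mup4 and Mup20 had 2. The Mup4 probe A_55_P2007816 was well above background on 0 of 8 saline arrays and on 1 of 24 treated arrays, its levels ran between -10.7 and -7.26, and it could not be tested. Its group means were -9.77 in saline miR-155-/- kidneys and -9.94 in saline wild type kidneys. The partner probe of the same transcript, A_55_P2010093, was well above background on all 8 saline arrays, so the pair disagreed. The other 7 probes were tested. Those of Mup3, Mup17, Mup18 and Mup20 passed the filter only through saline groups, where they were highest, so nothing is read from their calls after cisplatin. Because the copies are so alike, a signal cannot be assigned to 1 Mup gene with certainty.

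The promoters of these genes were compared as a description. They are not the sequences that the probes bind, and probe and transcript sequences were not compared. RefSeq (build GRCm38.p6) gave a promoter for 5 of the 6 genes, all on the reverse strand of chromosome 4. The 250 bases before the start of Mup19, Mup3 and Mup4, whose kidney signals moved together, are printed 5' to 3' in the gene's direction. Capitals mark the letters of a motif like the TATA box (TATATAA) and, in Mup3, letters that read AGAACA on the opposite strand.
Mup19, chr4:61782225-61782474, reverse strand: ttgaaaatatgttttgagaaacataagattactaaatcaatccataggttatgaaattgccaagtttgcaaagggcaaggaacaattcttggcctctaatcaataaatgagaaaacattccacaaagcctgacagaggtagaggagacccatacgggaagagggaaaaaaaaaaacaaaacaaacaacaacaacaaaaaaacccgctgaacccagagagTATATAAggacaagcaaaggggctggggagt
Mup3, chr4:62087318-62087567, reverse strand: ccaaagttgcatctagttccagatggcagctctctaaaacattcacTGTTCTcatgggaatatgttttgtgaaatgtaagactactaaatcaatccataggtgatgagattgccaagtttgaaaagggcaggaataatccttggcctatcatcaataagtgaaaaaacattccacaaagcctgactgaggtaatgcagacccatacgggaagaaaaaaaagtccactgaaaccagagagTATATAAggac
Mup4, chr4:59960668-59960917, reverse strand: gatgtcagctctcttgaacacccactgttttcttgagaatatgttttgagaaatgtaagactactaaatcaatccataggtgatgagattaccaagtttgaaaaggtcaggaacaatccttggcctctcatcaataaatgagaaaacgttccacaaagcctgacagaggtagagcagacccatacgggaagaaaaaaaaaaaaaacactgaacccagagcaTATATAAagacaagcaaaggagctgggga
TATATAA was searched on both strands and was chosen after the sequences were seen. It lay in all 5 promoters of these genes, beginning 31 bases before the start in Mup19, 29 in Mup4, 28 in Mup18, 25 in Mup17 and 11 in Mup3, and it was in 3.04% of the 32851 promoters of the same length. AGAACA, the core letters bound by steroid hormone receptors including the androgen receptor, was in the Mup3 promoter and in 16.1% of all promoters. The STAT-type palindrome TTCNNNGAA (7.02% of all) and the C/EBP-type letters TTGCNNAA (9.56% of all) were in none of these 5 windows.

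Aligned over their shared bases, the Mup17 and Mup19 promoters were 97.2% identical, Mup17 and Mup18 93.2%, and Mup18 and Mup19 92.3%. Mup3 was 79.8% identical to Mup19 and 87.5% to Mup4, and Mup4 was 81.0% identical to Mup19. Mup17, Mup18 and Mup19 were closer to each other than to Mup3 or Mup4.

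After saline, all 7 tested probes were well above background on all 8 arrays. Mup19 had levels of 2.09, 2.31, 0.47 and 2.92 in miR-155-/- kidneys, against 3.77, 0.11, -2.42 and -1.53 in wild type kidneys. Its processed intensities were 7189, 10466, 3299 and 15128 in miR-155-/- kidneys and 25553, 2309, 389 and 721 in wild type kidneys. Wild type mouse 1 had the highest level of the 8 and wild type mice 3 and 4 the lowest, so the miR-155-/- values fell inside the wild type range.

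Mup3 stood at -1.50, -1.53, -2.54 and 0.06 in saline miR-155-/- kidneys and at -0.06, -3.39, -6.65 and -5.46 in saline wild type kidneys. The darcin gene Mup20, by its probe A_55_P2051486, stood at 0.08, 0.32, -1.29 and 1.18 in miR-155-/- kidneys, against 1.73, -2.63, -5.37 and -3.88 in wild type kidneys. Both genes repeated the order of the wild type mice seen with Mup19, with mouse 3 lowest of all 8 mice.

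Every one of the 7 probes put the 4 saline wild type mice in the same order, mouse 1, then 2, 4 and 3. The span between the highest and the lowest wild type mouse was 5.91 to 7.10 log2 units, 59.9- to 137-fold, according to the probe. Among saline miR-155-/- mice the span was 2.33 to 3.01 log2 units, 5.03- to 8.06-fold, with mouse 4 highest by all 7 probes and the order 4, 2, 1, 3 by 5 of them. The within-group SD was 0.97 to 1.25 in miR-155-/- mice and 2.64 to 3.06 in wild type mice (n = 4 each). Pearson's r between 2 probes over the 8 saline arrays was 0.985 to 0.999 in 21 pairs, where the points share the arrays and near-identical transcripts may bind several probes. With each array's mean deviation removed, the SD of a probe over the 8 arrays was 0.10 to 0.35, against 2.12 to 2.53 before. The spread between mice was shared by all 7 probes.

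**Figure D1:**
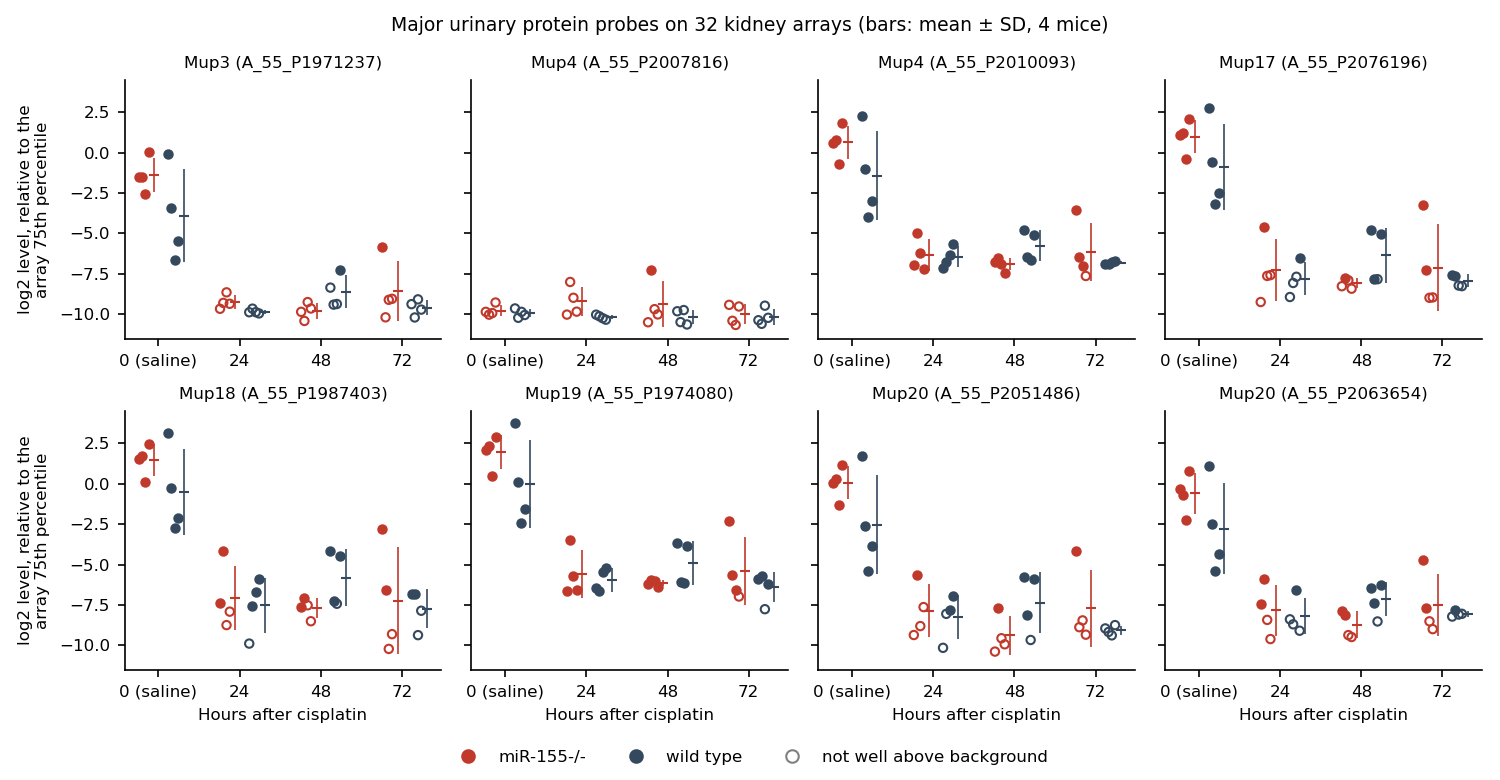
Levels of the 8 probes on the 32 arrays (y axis, log2 of the processed signal relative to the 75th percentile of the array) by hours after cisplatin (x axis), with miR-155-/- mice in red to the left of wild type mice in dark blue. Points are mice, open points were not well above background, and bars give the mean and SD of 4 mice; saline wild type mice span 5.91 to 7.10 units by the 7 tested probes, and the Mup4 probe A_55_P2007816 stays between -10.7 and -7.26 throughout.

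After cisplatin, the Mup signals were lower in both genotypes at every time. In bulk kidney RNA, fewer cells of a type and less RNA per cell cannot be told apart. Mup19 gave -6.66, -3.48, -5.69 and -6.58 at 24 h in miR-155-/- kidneys, against 2.09, 2.31, 0.47 and 2.92 after saline. In wild type kidneys it gave -6.47, -6.65, -5.49 and -5.19 at 24 h, against 3.77, 0.11, -2.42 and -1.53 after saline. Treated and saline values overlapped in neither genotype.

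At 48 h the Mup19 levels were -6.18, -5.95, -6.00 and -6.41 in miR-155-/- kidneys and -3.65, -6.06, -6.13 and -3.85 in wild type kidneys. At 72 h they were -2.31, -5.68, -6.60 and -6.98 in miR-155-/- kidneys and -5.91, -5.68, -7.76 and -6.21 in wild type kidneys. The highest treated values were those of miR-155-/- mouse 2 at 24 h, wild type mice 1 and 4 at 48 h and miR-155-/- mouse 1 at 72 h, and each was still below every saline mouse of its own genotype. Across genotypes the ranges met, since miR-155-/- mouse 1 at 72 h (-2.31) stood just above saline wild type mouse 3 (-2.42).

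The mean Mup19 signal was 188-fold lower at 24 h, 271-fold lower at 48 h and 162-fold lower at 72 h in miR-155-/- kidneys than after saline. Wild type kidneys had it 61.1-fold lower at 24 h, 30.0-fold at 48 h and 83.0-fold at 72 h. Mup19 was well above background on 22 of the 24 treated arrays.

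The bright Mup4 probe was detected most often after cisplatin, on 23 of 24 arrays. Its levels in miR-155-/- kidneys were 0.60, 0.82, -0.68 and 1.84 after saline, between -7.19 and -4.97 at 24 h, between -7.43 and -6.52 at 48 h and between -7.63 and -3.54 at 72 h. In wild type kidneys they were 2.28, -1.01, -3.96 and -2.99 after saline, between -7.13 and -5.62 at 24 h, between -6.65 and -4.81 at 48 h and between -6.88 and -6.71 at 72 h. At 72 h the miR-155-/- mice differed by 4.09 units and the wild type mice by 0.17.

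Mup3 was well above background on 2 of 24 treated arrays, those of wild type mouse 4 at 48 h (-7.29) and miR-155-/- mouse 1 at 72 h (-5.85). Where no treated array of a group measured it, the difference has only an approximate lower bound. It was taken against the higher of its own level and the lowest level well above background on each array. That lowest level is of any probe, and some probes above it were still not called. Each fold given below as at least a value was taken in this way and is approximate. In miR-155-/- kidneys Mup3 was at least 68.5-fold lower at 24 h (mean level -9.24, against -1.38 after saline) and at least 94.1-fold lower at 48 h (mean level -9.79). Wild type kidneys had it at least 16.7-fold lower at 24 h (mean level -9.84, against -3.89 after saline) and at least 15.7-fold lower at 72 h (mean level -9.59).

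Mup20 was well above background on 8 of 24 treated arrays by the probe A_55_P2051486 and on 11 by A_55_P2063654. The first of these gave -9.36, -5.66, -8.81 and -7.63 at 24 h in miR-155-/- kidneys and -10.1, -8.05, -7.82 and -6.97 in wild type kidneys. At 72 h it gave -4.17, -8.88, -8.46 and -9.34 in miR-155-/- kidneys and -8.95, -9.17, -9.38 and -8.75 in wild type kidneys, where no array measured it and its mean signal was at least 40.2-fold lower than after saline. The other probe ran between -9.61 and -4.73 over the treated arrays, with miR-155-/- mouse 1 at 72 h again highest.

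Mup17 and Mup18 were well above background on 10 and 14 of the 24 treated arrays. Mup17 ran between -3.17 and 2.77 after saline and between -9.24 and -3.26 after cisplatin. Mup18 ran between -2.75 and 3.15 after saline and between -10.2 and -2.81 after cisplatin. In each gene the lowest saline value was that of wild type mouse 3 and the highest treated value that of miR-155-/- mouse 1 at 72 h. Over the 24 treated arrays, Pearson's r between 2 of the 7 probes was 0.515 to 0.949, lower than after saline, with most values close to background.

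Over the 7 probes, the log2 difference between cisplatin and saline ranged between -8.52 and -6.97 at 24 h, between -9.46 and -7.54 at 48 h and between -8.69 and -6.79 at 72 h in miR-155-/- kidneys. The wild type range was between -7.03 and -5.03 at 24 h, between -5.49 and -4.33 at 48 h and between -7.22 and -5.26 at 72 h. The SE was 0.89 to 1.29, since 1 spread was fitted over all groups. The medians over the 7 probes were -7.86, -8.41 and -7.34 in miR-155-/- kidneys and -5.93, -4.83 and -6.37 in wild type kidneys at 24, 48 and 72 h, against medians over all 29113 probes of -0.02, -0.05 and -0.02 in miR-155-/- kidneys and 0.07, -0.01 and 0.02 in wild type kidneys. Mup3, and Mup20 by A_55_P2051486, were not measured on any treated array of some groups. With these at their approximate bound the medians were -7.55, -8.12 and -7.34 in miR-155-/- kidneys and -5.71, -4.83 and -5.38 in wild type kidneys. Probes measured on only some arrays of a group kept their levels, so these medians still rest in part on values not well above background. With another background correction (normexp on the median spot signals) the differences were smaller, between -5.91 and -3.50 at 24 h, between -5.40 and -2.67 at 48 h and between -5.11 and -2.77 at 72 h in miR-155-/- kidneys, and between -3.67 and -1.19, between -3.82 and -1.86 and between -4.50 and -1.97 at these times in wild type kidneys.

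All 7 probes were called lower in each of the 6 comparisons (limma, adjusted p under 0.05), as were 23.4, 21.5 and 17.9% of all probes tested in miR-155-/- kidneys and 18.1, 11.9 and 13.2% in wild type kidneys at 24, 48 and 72 h. Every treated mouse was below every saline mouse of its genotype by all 7 probes in each comparison, as it was for 18.9, 18.5 and 20.8% of all probes in miR-155-/- kidneys and 21.4, 17.8 and 21.3% in wild type kidneys. Since the genes were chosen on this contrast, these counts restate the choice and nothing is read from them. The 3 comparisons of a genotype share its saline mice. Without saline wild type mouse 1 the wild type differences shrank to between -5.81 and -3.80 at 24 h, between -4.27 and -3.09 at 48 h and between -6.01 and -3.98 at 72 h. Without miR-155-/- mouse 1 at 72 h, the difference at that time in miR-155-/- kidneys lay between -10.2 and -7.66.

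**Figure D2:**
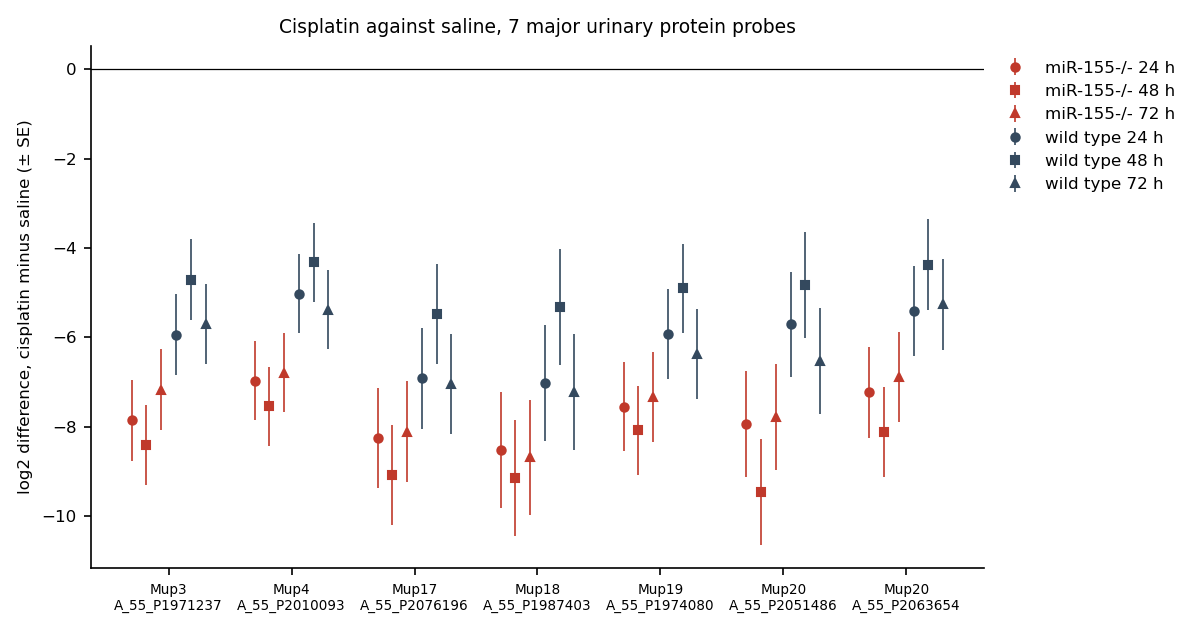
The log2 difference between cisplatin and saline (y axis) with its SE for each of the 7 tested probes (x axis), at 24 h (circles), 48 h (squares) and 72 h (triangles), miR-155-/- in red to the left of wild type in dark blue. All 42 differences lie below 0, between -9.46 and -4.33; values for arrays where a probe was not well above background are included as measured.

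The arrays were spread over 8 slides and scanned on 2 days. Within a slide or a scan day that held both treated and saline arrays of a genotype, every difference of the 7 probes was below 0. The genes were chosen on this contrast, so these signs restate the choice and nothing is read from them. Each of these comparisons within a slide set 1 array against 1. In miR-155-/- kidneys the 7 differences within a day ran between -9.50 and -6.24 at 24 h, between -9.82 and -7.26 at 48 h and between -11.2 and -5.59 at 72 h. Those of wild type kidneys ran between -10.2 and -4.33 at 24 h and between -7.76 and -3.90 at 48 h. At 72 h they ran between -10.9 and -3.99. In each genotype the only saline array of the first day was that of mouse 1. No slide held both wild type arrays of 72 h and of saline.

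Between the genotypes, no Mup probe was called after saline, and the difference in means was smaller than the SD of the wild type mice. Over the 7 probes the mean level was 1.87 to 2.61 log2 units higher in miR-155-/- kidneys (SE 0.89 to 1.29), with Mup19 averaging 1.95 ± 1.05 in miR-155-/- kidneys and -0.02 ± 2.74 in wild type kidneys (SD, n = 4 each). None of the 7 differences passed the test (limma, adjusted p of at least 0.837, where 0.151% of all probes were called), and the groups overlapped by every probe. Before adjustment 4 of the 7 probes, those of Mup3 and Mup20 and the bright probe of Mup4, had p under 0.05, as did 3.27% of all probes.

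The difference rested on which mice were counted. Without saline wild type mouse 1 it was 3.08 to 4.03, and 2 of the 7 probes were called, Mup3 (3.79, limma adjusted p = 0.0155) and Mup4 (3.30, limma adjusted p = 0.0469). Within the first scan day, which held 1 mouse of each genotype, the 7 differences were -1.68 to -1.37, and within the second, with 3 mice of each, they were 3.05 to 4.03. By slide they were -1.68 to -1.37 on the slide with both mice numbered 1, 2.64 to 3.81 on another and 4.39 to 5.69 on the last, each holding 1 mouse of each genotype. The first scan day and the slide with both mice numbered 1 held the same 2 saline arrays, so their values are 1 comparison. The difference was below 0 only in this pair, which holds wild type mouse 1.

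**Figure D3:**
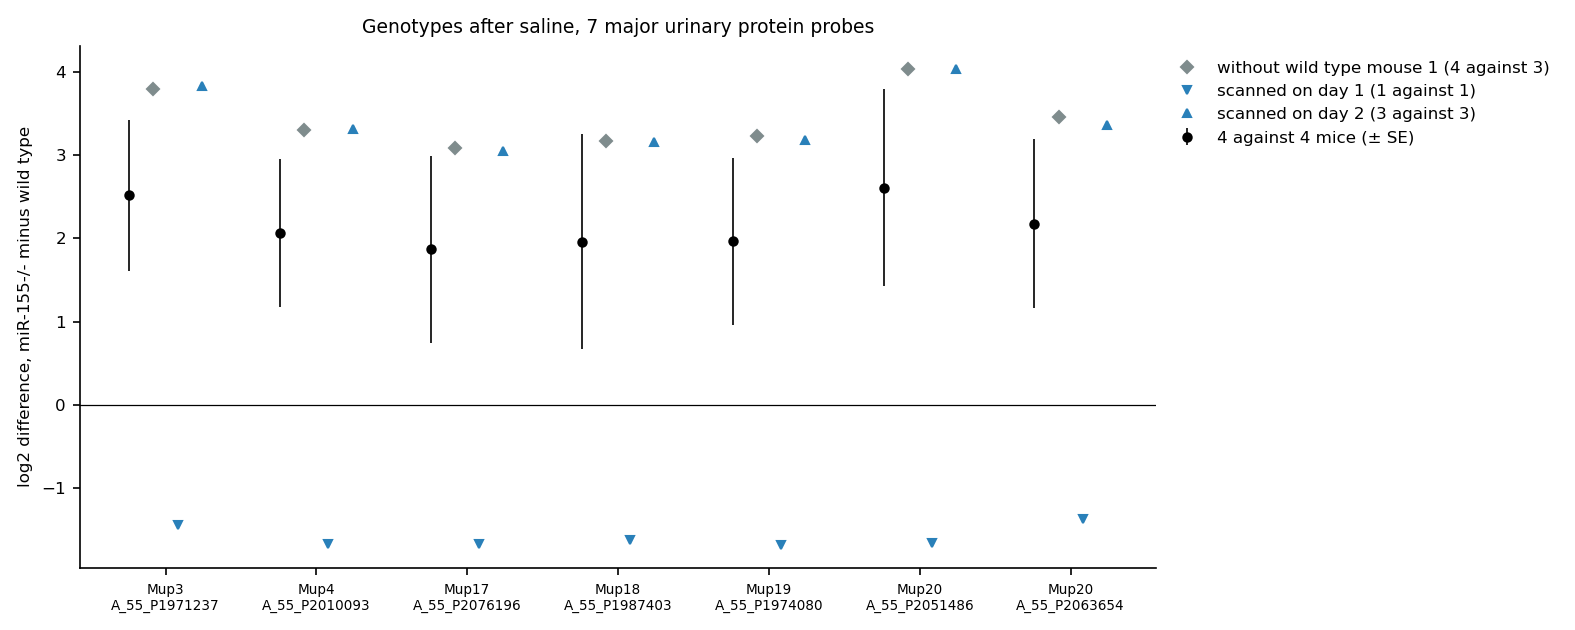
The log2 difference between saline miR-155-/- and saline wild type kidneys (y axis) for the 7 tested probes (x axis), with its SE for 4 against 4 mice in black. Grey diamonds leave out wild type mouse 1 and lie at 3.08 to 4.03; blue triangles are the values within a scan day, at -1.68 to -1.37 for the first (pointing down) and 3.05 to 4.03 for the second (pointing up).

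After cisplatin no Mup probe was called between the genotypes at any time. The 7 differences between miR-155-/- and wild type kidneys were 0.12 to 0.60 at 24 h (limma adjusted p 0.808 to 0.966), -2.02 to -1.15 at 48 h (0.372 to 0.512) and 0.49 to 1.35 at 72 h (0.775 to 0.953). Of all probes, 0.0996, 0.141 and 0.759% were called at these times. No probe of the 7 reached an unadjusted p under 0.05 at 24, 48 or 72 h. In each treated group only 12 to 21 of the 28 values of these probes were well above background. Differences between treated mice are therefore poorly measured, and the lack of calls says little. Within a scan day the 24 h and 72 h differences took both signs, and those at 48 h were all below 0, at -3.19 to -1.67 on the first day and -1.47 to -0.06 on the second.

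The difference of the cisplatin effect between genotypes, the interaction, was below 0 for all 7 probes at each time. It was -2.23 to -1.34 at 24 h, -4.63 to -3.18 at 48 h and -1.63 to -0.96 at 72 h, with an SE of 1.25 to 1.83. None passed the test (limma adjusted p 0.938 at 24 h, 0.642 to 0.656 at 48 h and 0.906 to 0.955 at 72 h; 0, 0 and 0.206% of all probes were called). Before adjustment all 7 had p under 0.05 at 48 h, where 7.17% of all probes did, and none had at 24 or 72 h. The genes were picked on the wild type response, which is 1 side of this difference, and the saline mice of both genotypes enter all 3 interactions. Many of the treated values that enter them were not well above background. The probes of Mup3, Mup17, Mup18 and Mup20 passed the filter only through saline groups.

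Of the 4 other Mup genes with a named probe, Mup2, Mup5 and Mup21 were tested and Mup6 was not. Mup2 had levels of -0.84, -0.77, -2.24 and -0.23 in saline miR-155-/- kidneys and 0.58, -2.26, -3.69 and -3.30 in saline wild type kidneys, the same order of wild type mice as above. It was lower after cisplatin in all 6 comparisons, with log2 differences of -3.60 to -3.17 in miR-155-/- kidneys and -2.30 to -2.11 in wild type kidneys. Its treated levels stayed between -5.10 and -3.78 and were well above background on all 24 arrays, unlike those of the 7 probes. Mup21 was lower too, with differences of -2.89 to -2.42 in miR-155-/- kidneys and of -1.35 and -1.36 at 24 and 48 h in wild type kidneys. Its wild type difference at 72 h of -1.21 missed the test (limma adjusted p = 0.0543). Mup5 was lower in the 3 miR-155-/- comparisons, with a difference of -3.72 at 72 h, and was lower by at least 10.3-fold at 24 h, where no treated array measured it. Its wild type differences of -1.91 to -1.75 were not called (limma adjusted p 0.0802 to 0.136), and it was well above background on 4 saline miR-155-/- arrays and 2 saline wild type arrays. Mup5 passed the filter only through saline miR-155-/- kidneys, the group where it was highest, so nothing is read from its calls. Mup6 was well above background on 3 saline miR-155-/- arrays, 1 saline wild type array and no treated array.

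The genes that most resembled the Mup probes over the saline mice were secreted or metabolic proteins best known from liver. By Pearson's r with the mean of the 7 probes over the 8 saline arrays, the 6 nearest named genes were Serpina3k (0.996), Ahsg (0.990), Serpina3m (0.982), Apoc4 (0.981), Ces1c (0.970) and Cyp2c50 (0.968). They were ranked among 424 named probes of genes other than Mup with an SD of at least 1 over the 8 arrays, of which 30 had an r above 0.9. Serpina3k and Serpina3m encode serine protease inhibitors, Ahsg the plasma protein fetuin-A, Apoc4 an apolipoprotein, Ces1c a carboxylesterase and Cyp2c50 a cytochrome P450. Over the 8 group means, which fall into a saline and a treated cluster, the nearest were Ahsg (0.998), Serpina3k (0.997), Cyp2a12 (0.991), Mug2 (0.987), Slco1b2 (0.985) and Syt9 (0.979). These values describe 8 points each, all from the arrays that gave the Mup levels.

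Ahsg had levels of -1.11, -1.55, -2.34 and 0.18 in saline miR-155-/- kidneys and 0.03, -2.82, -4.82 and -4.32 in saline wild type kidneys. Serpina3k had -2.33, -2.44, -3.56 and -0.98 in saline miR-155-/- kidneys and -0.94, -4.69, -7.20 and -6.18 in saline wild type kidneys. Both put the wild type mice in the order 1, 2, 4, 3 of the Mup probes and had miR-155-/- mouse 4 highest of its group. After cisplatin Serpina3k was well above background on 1 wild type array at 48 h and 1 miR-155-/- array at 72 h only.

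**Figure D4:**
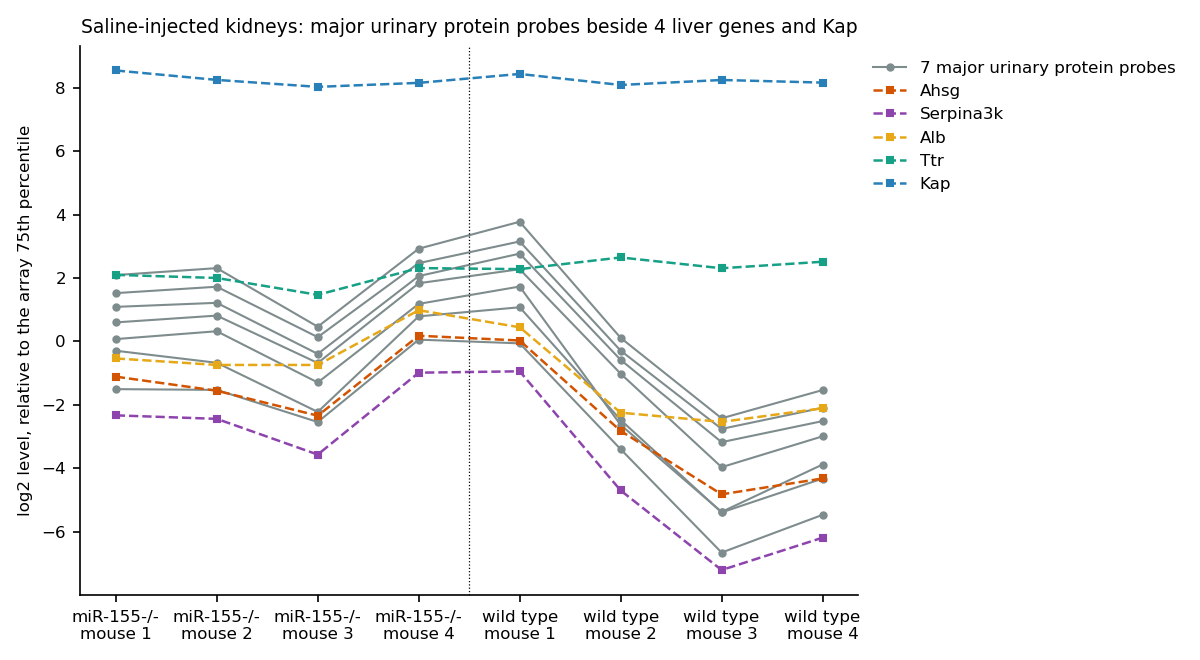
Levels (y axis, log2 relative to the 75th percentile of the array) on the 8 saline arrays, with the 4 miR-155-/- mice to the left of the 4 wild type mice (x axis); grey lines are the 7 Mup probes, and dashed lines Ahsg, Serpina3k, Alb, Ttr and the kidney gene Kap. Ahsg and Serpina3k follow the grey lines, with wild type mouse 1 high (0.03 and -0.94) and mouse 3 low (-4.82 and -7.20), while Ttr stays between 1.47 and 2.65 and Kap between 8.02 and 8.54; levels of different probes are not comparable.

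Liver markers moved with the Mup signals in part. Of 31 listed, 30 had a probe and 26 were tested; 6 of the 26 (Serpina3k, Ahsg, Apoa1, Alb, Plg and Cyp3a11) had an r above 0.9 with the mean of the 7 probes over the saline arrays, as had 0.295% of all tested probes. The summed level of the 30 was 175 to 242 times the array's 75th percentile in saline miR-155-/- kidneys and 172 to 205 times in saline wild type kidneys. After cisplatin it was 115 to 157, 93.1 to 151 and 186 to 215 in miR-155-/- kidneys and 85.4 to 117, 83.4 to 177 and 196 to 238 in wild type kidneys at 24, 48 and 72 h. The highest saline log2 levels of Ahsg, Serpina3k, Alb and Apoa1 were 0.18, -0.94, 0.99 and -3.17, where 0 is the 75th percentile itself. These markers therefore added little to the sum, which rests on brighter markers and says little of them. Of the 30, 26 were well above background on all 4 arrays in saline miR-155-/- kidneys and 25 in saline wild type kidneys. After cisplatin 22 still were at each time in miR-155-/- kidneys and 23 in wild type kidneys. Tdo2, a hepatocyte enzyme of tryptophan breakdown, was among the exceptions. It was well above background on 2 saline miR-155-/- arrays, 1 saline wild type array and 0 treated arrays. In saline kidneys none of the 30 was dark on every array of a group. The part of liver transcripts in the Mup result was not tested.

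After cisplatin, 20, 19 and 11 of the 26 liver markers were lower and 1, 0 and 3 higher in miR-155-/- kidneys, and 14, 9 and 6 were lower and 2, 1 and 3 higher in wild type kidneys, at 24, 48 and 72 h. Of all probes, 23.4, 21.5 and 17.9% were lower and 26.8, 23.3 and 17.8% higher in miR-155-/- kidneys. In wild type kidneys 18.1, 11.9 and 13.2% of all probes were lower and 21.8, 12.3 and 12.4% higher. The median difference of the 26 was -0.78, -0.89 and -0.59 in miR-155-/- kidneys and -0.70, -0.27 and 0.06 in wild type kidneys. Ahsg differed by -6.93 to -5.86 in miR-155-/- kidneys and by -4.83 to -4.21 in wild type kidneys. Serpina3k, not measured on any treated array of these groups, was at least 35.4-fold and 48.6-fold lower at 24 and 48 h in miR-155-/- kidneys and at least 9.16-fold and 8.63-fold lower at 24 and 72 h in wild type kidneys. Alb (albumin) differed by -3.42 to -2.40 in miR-155-/- kidneys and by -2.09 to -1.37 in wild type kidneys. Ttr (transthyretin) differed by -1.93 to -0.61 in miR-155-/- kidneys and by -1.62 to -1.02 in wild type kidneys, and each of these values of Ahsg, Alb and Ttr was called. Ahsg and Serpina3k passed the filter only through saline kidneys, where they were highest, so nothing is read from their calls after cisplatin. Kng1 (kininogen) fell by 1.197 in wild type kidneys at 24 h. Apoa1 (the main protein of high-density lipoprotein) was lower at 24 and 48 h in miR-155-/- kidneys (-1.48 and -1.91), and its differences in wild type kidneys were -0.24 to 0.01, none of which was called. Without saline wild type mouse 1, 4 liver markers were lower in wild type kidneys at 48 h, against 9 with it.

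Ahsg was well above background on 14 of the 24 treated arrays and Serpina3k on 2, so they can be set beside the Mup levels of treated mice only in part. Over the 7 probes, miR-155-/- mouse 1 at 72 h averaged -3.81, against -7.53 for the next mouse of that group, and it had the highest Ahsg (-5.33) and Serpina3k (-6.33) of the 4. At 24 h miR-155-/- mouse 2 averaged -5.44, against -7.73 for the next, with the second highest Ahsg (-7.17). Wild type mice 4 and 1 at 48 h averaged -5.41 and -5.42, with Ahsg at -5.91 and -6.37, the highest of that group.

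Markers of other tissues had an r of at most 0.65 with the Mup signals. Over the 8 saline arrays the r with the Mup mean was -0.23 to 0.55 for the 8 adipocyte markers tested, 0.25 to 0.65 for the 6 red blood cell markers, 0.51 and 0.53 for the 2 adrenal cortex markers tested and -0.74 to 0.47 for the 10 kidney markers. The summed level of the 9 adipocyte markers was 8.22 to 11.7 in saline miR-155-/- kidneys and 7.71 to 15.3 in saline wild type kidneys, and that of the 6 red blood cell markers was 8.73 to 21.6 in saline miR-155-/- kidneys and 6.69 to 26.2 in saline wild type kidneys. Both sums were highest in saline wild type mouse 1 among the wild type mice. Saline miR-155-/- mouse 4, the highest of its group by the Mup probes, ranked 4 of 4 for the adipocyte sum (8.22) and 3 of 4 for the red blood cell sum (9.40). Of the 6 adrenal cortex markers listed, 2 were well above background on all 4 arrays of each saline group. Cyp11b1 and Cyp11b2 were on some saline wild type arrays and on no saline miR-155-/- array. Cyp11a1, the enzyme that opens steroid synthesis in the adrenal cortex, and Mc2r, the receptor for adrenocorticotropic hormone, were not well above background on any saline array.

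Red blood cell markers were lower after cisplatin for 1, 1 and 6 of 6 in miR-155-/- kidneys and for 1, 6 and 6 of 6 in wild type kidneys at 24, 48 and 72 h, with Slc4a1 (the band 3 anion exchanger) at -1.79 in wild type kidneys at 24 h. Of the 8 adipocyte markers, 1 (Cidec, a lipid droplet protein) was higher in each comparison, by 2.55 in wild type kidneys at 24 h, and none was lower. Of the 10 kidney markers, 6, 7 and 7 were lower in miR-155-/- kidneys and 8, 3 and 4 in wild type kidneys. One of the 10, Nphs1 (nephrin of the glomerular filter), was higher at 72 h, by 0.53 in miR-155-/- kidneys and 0.58 in wild type kidneys. Of all probes, 11.9 to 23.4% were lower and 12.3 to 26.8% higher in these comparisons, so that counts of 1 in these small lists are near the share of all probes. The kidney markers with the smallest adjusted p in wild type kidneys at 24 h were Slc12a3 (the thiazide-sensitive sodium chloride transporter, difference -2.47), Lrp2 (megalin, the tubular receptor that takes up filtered proteins, -2.24), Slc34a1 (a phosphate transporter, -1.51) and Umod (uromodulin, -1.94). The part of these shifts in the Mup result was not tested.

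Among the regulators of Mup genes known from liver, growth hormone and androgen signalling genes and liver transcription factors, all 23 listed were tested. In miR-155-/- kidneys 16, 14 and 12 were lower and 1 higher at 24, 48 and 72 h, and in wild type kidneys 9, 6 and 5 were lower and 2, 2 and 1 higher. Of all probes, 23.4, 21.5 and 17.9% were lower in miR-155-/- kidneys and 18.1, 11.9 and 13.2% in wild type kidneys. The median difference of the 23 was -0.88, -0.80 and -0.53 in miR-155-/- kidneys and -0.76, -0.44 and -0.25 in wild type kidneys. At 24 h, Ghr (the growth hormone receptor) differed by -0.84 in miR-155-/- kidneys and -1.18 in wild type kidneys. Thrb (a thyroid hormone receptor) differed by -2.56 in miR-155-/- kidneys and -2.33 in wild type kidneys. Cebpb (a stress-induced transcription factor) was higher, by 1.45 in miR-155-/- kidneys and 1.56 in wild type kidneys, and all 6 of these values were called.

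Male-biased or androgen-responsive kidney genes were lower after cisplatin in larger shares than all probes. The list was chosen with earlier results of these data known, so the larger share may restate that choice. The part of these genes in the Mup result was not tested. Of the 14 listed, 12, 13 and 13 were lower in miR-155-/- kidneys and 11, 12 and 12 in wild type kidneys at 24, 48 and 72 h, and none was higher, against 17.9 to 23.4% of all probes lower in miR-155-/- kidneys and 11.9 to 18.1% in wild type kidneys. The median difference of the 14 was -0.95, -1.12 and -1.37 in miR-155-/- kidneys and -1.12, -1.33 and -0.97 in wild type kidneys. The 4 with the smallest adjusted p in wild type kidneys at 24 h were Nudt19 (a hydrolase of coenzyme A, difference -1.53), Cyp7b1 (an oxysterol hydroxylase, -1.48), Odc1 (ornithine decarboxylase, -1.14) and Slc7a13 (an amino acid transporter, -1.80). Kap, the androgen-regulated protein of the proximal tubule, differed by -0.05, -0.38 and -0.61 in miR-155-/- kidneys and by -0.13, -0.34 and -0.37 in wild type kidneys at 24, 48 and 72 h, and was called lower only at 48 and 72 h in miR-155-/- kidneys.

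Of 20 other lipocalins listed, 12 were tested, and 4, 4 and 3 were lower and 2, 1 and 2 higher in miR-155-/- kidneys, against 4, 2 and 2 lower and 1 higher at each time in wild type kidneys. Of all probes, 17.9 to 23.4% were lower in miR-155-/- kidneys and 11.9 to 18.1% in wild type kidneys, and the wild type counts of 2 of 12 are near that share. The median difference of the 12 was -0.28, -0.29 and -0.13 in miR-155-/- kidneys and -0.26, -0.20 and -0.11 in wild type kidneys. The 4 with the smallest adjusted p at 24 h in wild type kidneys were C8g (a complement subunit, -0.82), Ambp (the precursor of alpha-1-microglobulin, 1.07), Apom (an apolipoprotein, -0.79) and Orm2 (an acute phase protein, -1.16). No gene of the liver, adipocyte, adrenal, red blood cell, kidney, regulator, androgen-responsive or lipocalin lists was called between the genotypes at 0, 24, 48 or 72 h with all mice in the fit. Without saline wild type mouse 1, 3 liver markers were higher in saline miR-155-/- kidneys (limma): Serpina3k by 3.70 (adjusted p = 0.0221), Alb by 2.04 (adjusted p = 0.00271) and Serpinc1, which encodes antithrombin, by 1.498 (adjusted p = 0.00418).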

How the data were processed

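The deposited scanner files of 32 arrays (1-colour Agilent 4x44k version 2, Cy3, 500 ng RNA per array) hold, per the file headers, the intensity of each spot as Feature Extraction 10.7.3.1 (protocol GE1_107_Sep09) processed it; the aligner and genome build do not apply to probes, and the authors' further steps are not given in the sources used here. The authors' value table holds the same intensity values times 1 factor per array, with column medians of 64.5 to 83.6, and served as an alternative. RNA came from independent animals, per the labels' protocols. Flagged outlier spots (59 to 976 of 43020 per array) were left out, leaving 1147 missing probe values. The log2 processed signal minus the 75th percentile of each array (an intensity of 1531 to 2647) was averaged over spots of a probe. Probes were named by unversioned accession through RefSeq (GRCm38.p6): 27234 of 39429 (69.1%) had a gene and 12195 had none.

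Tests were fitted with limma 3.58.1 (R 4.3.3; lmFit, contrasts, eBayes with trend) on 8 group means over 32 arrays, for 13 comparisons. A probe was tested if some group had it well above background in all 4 animals and every group had at least 3 values. P-values were adjusted by Benjamini-Hochberg over 29113 probes per comparison, and a call is an adjusted p under 0.05. On simulated data for wild type at 24 h with 200 changed probes, 93% of changes of 2 log2 units and 100% of 4 units were recovered. There were 15 false calls at each size. No such rate was estimated for the Mup probes, whose SE in this comparison was 0.89 to 1.29. The fit used probes, not genes, so that each member probe has its own value. The scanner files used here hold median spot signals, on which the normexp alternative (offset 50) was run in place of mean signals. Its offset adds 50 to each signal, where the processed Mup3 intensities of saline wild type mice 3 and 4 were 20.7 and 47.3. Figures, alignments (Biopython 1.88) and summaries used Python 3.11.15.

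Members and gene lists were chosen with earlier results of these data known. Genes named are all probes of the 6 members and other Mup genes, of each list up to 4 called genes, by adjusted p in wild type at 24 h, Alb, Apoa1, Ahsg, Ttr, Havcr1 and Lcn2, and the 6 named genes with the highest Pearson r to the member mean over the saline arrays and over the group means; the brightest probe stands for a gene of a list. Kap, Tdo2, Cyp11a1, Cyp11b1, Cyp11b2, Mc2r, Plg, Cyp3a11, Nphs1, Serpinc1 and the markers' summed levels were added after their values were seen. One gene that the rule names is not reported here. The number of arrays limits the precision. Same-numbered samples did not deviate together (33 of 112 pairs had a correlation over 0.1, range -0.54 to 0.59), so the replicate numbers were not used as pairs.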

Additional observations from a re-analysis of the deposited data

Results flagged for a closer look

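Of 80 groups of 4 values, those of the 7 Mup probes and 3 probes of other Mup genes, 2 held a mouse far from the others, where chance alone flags about 1 in 20. The Mup20 probe A_55_P2051486 stood at -4.17 in miR-155-/- mouse 1 at 72 h, against a group median of -8.67. The Mup2 probe stood at -4.73 in wild type mouse 3 at 48 h, against a group median of -4.40, a gap of little size in a narrow group.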

How the results depend on the processing

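The 7 Mup probes kept their direction after cisplatin under quantile normalization, the authors' value table, no filter on dim probes, a fit of only the groups compared, slide as a block and the brightest probe of each gene (6 probes tested, 6 called). Calls on this contrast restate the choice of the genes and show no stability. With normexp on the median signals all differences stayed below 0 but shrank, and 4, 5 and 6 of 7 were called in wild type kidneys at 24, 48 and 72 h: Mup3 lost the call at each time (-1.19, -1.86 and -1.97; limma adjusted p 0.396, 0.171 and 0.137), and of Mup20 both probes at 24 h (-2.07 and -1.85) and A_55_P2063654 at 48 h (-2.50); the cause was not tested. Leaving out each replicate in turn gave 7 to 7 calls in each cisplatin comparison. Between the genotypes at 0 h it gave 0 to 2 calls, 2 without saline wild type mouse 1, and 0 under the other settings. With the replicate block, the differences lay between -9.46 and -6.79 in miR-155-/- kidneys and between -7.22 and -4.33 in wild type kidneys, and 0 probes were called between the genotypes. Of the lists, liver markers lower in wild type kidneys at 48 h numbered 4 without saline wild type mouse 1, 3 liver markers were then called between the genotypes at 0 h, against 0 with it, and lipocalins lower at 72 h numbered 1 both without that mouse and with slide as a block. Normexp called 2680 probes lower and 3633 higher in wild type kidneys at 24 h, against 5257 and 6349 in the main setting, and moved the median of all probes to 0.26 there and to 0.32 in miR-155-/- kidneys at 48 h. At 0 h, 36 probes were higher and 8 lower in miR-155-/- kidneys, against 44 and 19 with quantile normalization, 38 and 17 with slide as a block and 29 and 0 with only these groups fitted. After cisplatin most Mup probes were near background, so differences among treated mice are poorly measured.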
